A study of Homo sapiens with 8 samples.

Results

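Keratins are the intermediate filament proteins of epithelial cells, built as obligate pairs of an acidic type I and a basic type II chain. Simple epithelia carry KRT8 with KRT18, the basal layer of stratified epithelia carries KRT5 with KRT14, and wounded or hyperproliferative epithelium switches on KRT6 with KRT16 and KRT17. Further members belong to differentiated layers, the hair follicle and the hair shaft. The transcription factor p63 governs the stratified programme, and basal keratin genes are among its known targets. The keratin family was taken as all gene symbols formed by KRT, a number and at most a letter A to C, without keratin-associated proteins or pseudogenes, which gave 55 of 26760 genes in the table.

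The 8 RNA-seq libraries came from LK2, a cell line of lung squamous carcinoma, and formed 4 groups of 2. Cells with the constitutive DNp63 vectors pLEX_306-DNp63 (replicate 1) and pLEX_307-DNp63 (replicate 2) were set against cells with pLEX_306-GFP (replicate 1) and pLEX_307-GFP (replicate 2). Cells with the doxycycline-inducible vector pLIX_403-DNp63, kept for 6 days with doxycycline at 2 µg per ml (induced), were set against the same cells kept without the drug (uninduced). No library with doxycycline came from cells without the DNp63 vector. Effects of the drug and of DNp63 therefore cannot be told apart in induced against uninduced cells. DNp63 is the form of p63 that lacks the N-terminal activation domain. All groups are a single cell line, the constitutive replicates differ in their vector, and the labels do not say whether the replicates were separate cultures, so the p-values measure only the spread between these libraries. Total counts were 3348421 and 4924534 in the DNp63 libraries, 2758158 and 4819186 with GFP, 8169745 and 5229957 induced and 5067659 and 10372248 uninduced.

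TP63 stood at 1845 and 3806 CPM (the count scaled to the library size) in the DNp63 libraries, against 0.738 and 1.90 CPM with GFP. It stood at 412 and 421 CPM in the induced libraries, against 12.7 and 14.8 CPM uninduced. Of the 8 genes listed as markers of a squamous line, KRT14 had no count in any library, and KRT5 had 0 to 3 counts in each GFP and uninduced library. SOX2, at 68.1 to 574 CPM, and KRT6A, DSG3, DSC3 and TRIM29, with 6 or more counts each, were present in all 8 libraries. Of the 7 squamous markers tested, 6 rose and 1 (SOX2) fell under constitutive DNp63, by edgeR's quasi-likelihood test with Benjamini-Hochberg adjustment. The risers were TP63, which the vector itself carries, the keratins KRT5 and KRT6A, and DSG3, DSC3 and TRIM29. In the same comparison 4.17% of all tested genes rose and 3.99% fell. The count of 6 is therefore not independent of the vector or of the keratin results. Under induced DNp63, 3 of the 7 rose (TP63, KRT6A and TRIM29) and none fell, against 0.236% of all tested genes that rose. KRT5, DSG3, DSC3 and SOX2 were not called there, and the same limit holds for the count of 3. The summed level of 6 fibroblast markers was 16.5 to 30.4 CPM with DNp63, 16.9 to 20.3 with GFP, 8.26 to 14.7 induced and 14.5 to 16.9 uninduced, and that of 6 immune and endothelial markers was at most 3.70 CPM. In bulk RNA, a change in the number of cells that express a keratin and a change in the level per cell cannot be told apart.

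Of the 55 keratins, 18 had no count in any library, 24 had counts but too few for testing, and 13 were tested. The 18 without a count included KRT7, of simple epithelium, and KRT1 and KRT4, of differentiated stratified layers. More keratins were seen in the DNp63 libraries, where 28 and 30 members had at least 1 count, than in the others. The corresponding numbers were 16 and 15 with GFP, 13 and 15 induced and 14 and 17 uninduced. The 42 untested members summed to only 59 and 43 counts in the DNp63 libraries. Detection over all genes was not counted, so these numbers describe the members and do not set keratins apart from other genes. DNp63 replicate 1 had fewer total counts than every library except GFP replicate 1. Summed over the family, keratins made up 0.965% and 0.731% of all counts in the DNp63 libraries, against 0.426% and 0.403% with GFP. The share was 0.402% and 0.417% in induced libraries, against 0.319% and 0.284% in uninduced libraries. As a level, the summed keratins averaged 8085 ± 1583 CPM (SD, n = 2) with DNp63 and 4219 ± 159 CPM with GFP, and 4165 ± 162 CPM induced and 3049.8 ± 275 CPM uninduced. The groups did not overlap in either system, and the mean log2 difference over both systems was 0.69. Without KRT8, KRT18 and KRT19 the sum was 4153 and 1787 CPM with DNp63 and 273 and 170.2 CPM with GFP. The same sum was 396 and 344 CPM induced and 143 and 135 CPM uninduced.

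**Figure D1:**
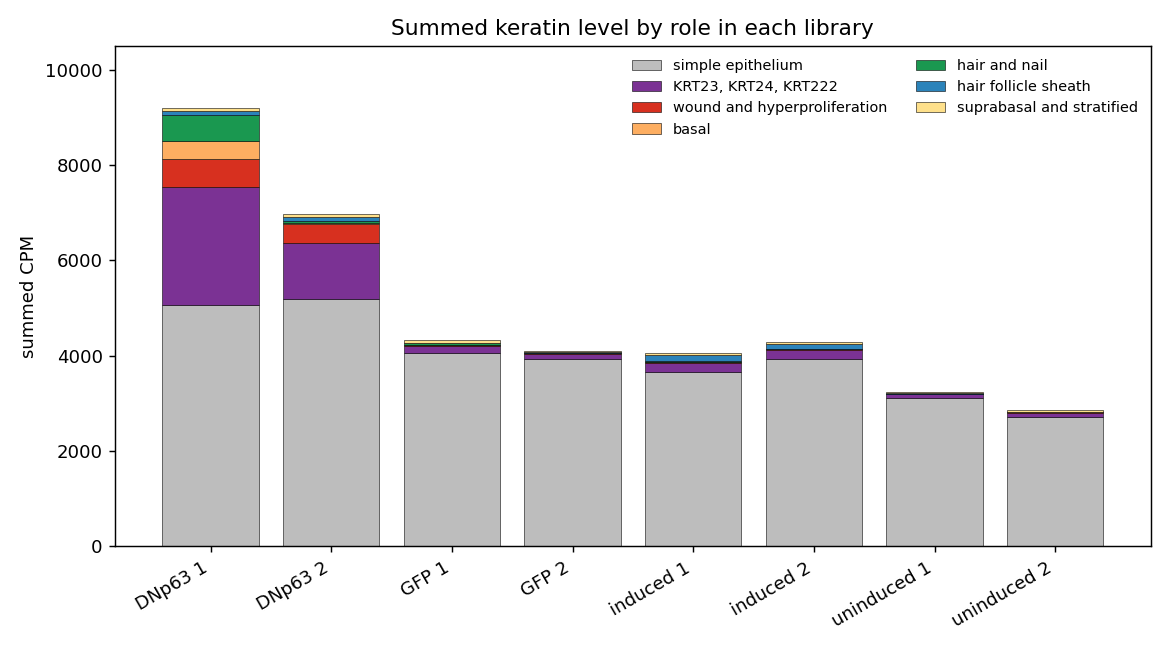
Summed keratin level (CPM, vertical axis) in each of the 8 libraries, stacked by the role of the members. Simple epithelium keratins make up most of each bar, and the DNp63 bars, the tallest at 9205 and 6965 CPM, also hold a visible part of KRT23, at 2492 and 1184 CPM.

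Among the 13 tested keratins, 7 rose under constitutive DNp63 (KRT5, KRT6A, KRT6C, KRT16, KRT23, KRT39 and KRT74), none fell and 6 did not pass the test, which was edgeR's quasi-likelihood test with Benjamini-Hochberg adjustment at 0.05. Over all genes tested in that comparison, 513 of 12303 (4.17%) rose, 491 (3.99%) fell and 8.16% were called in either direction. Of the 13 keratins, 8 had both DNp63 libraries above both GFP libraries and none had both below, while groups did not overlap in 44.4% of all tested genes, counting either direction. At an unadjusted p below 0.05, 9 keratins were higher and none lower, against 11.5% of all genes higher, and DESeq2 called 7 higher and none lower, against 4.88% higher. The 7 keratins called by DESeq2 were not the same set, with KRT8 in and KRT16 out. Under induced DNp63, 2 keratins rose (KRT6A and KRT74) and none fell, against 0.236% of all genes that rose and 0.0488% that fell. In 7 of the 13 keratins both induced libraries lay above both uninduced ones, and in none both below, while groups did not overlap in 46.9% of all tested genes, counting either direction. At an unadjusted p below 0.05, 4 were higher and none lower, against 3.47% of all genes higher, and DESeq2 called 3 higher and none lower, against 0.61% higher. With only the inducible libraries in the fit, KRT8 (0.52; adjusted p = 0.000164) and KRT23 (1.13; adjusted p = 4.27e-08) were also called, and all-gene calls numbered 771, against 35. KRT5, KRT6C, KRT16 and KRT39 had fewer than 10 counts in every library outside the constitutive DNp63 cells. They therefore entered the test through the group in which they were high, and the count of 7 is a description and not support for a change of the family. The same holds for every other count given here, by any rule, averaged or blocked, that includes any of these 4 genes. Averaged over both systems, KRT6A, KRT8, KRT23 and KRT74 rose, and none fell, while 3.26% of all tested genes rose, 2.41% fell and 5.67% were called in either direction. In that comparison 8 keratins were higher and none lower at an unadjusted p below 0.05, against 9.9% of all genes higher, and DESeq2 called 5 higher and none lower, against 4.07% higher. With the vector number as a block, which pairs the constitutive libraries of the same vector, the averaged calls numbered 7, with KRT5 (adjusted p = 0.00247), KRT31 (0.0115) and KRT39 (0.0271) added, while all-gene calls numbered 1421, against 697 without the block.

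**Figure D2:**
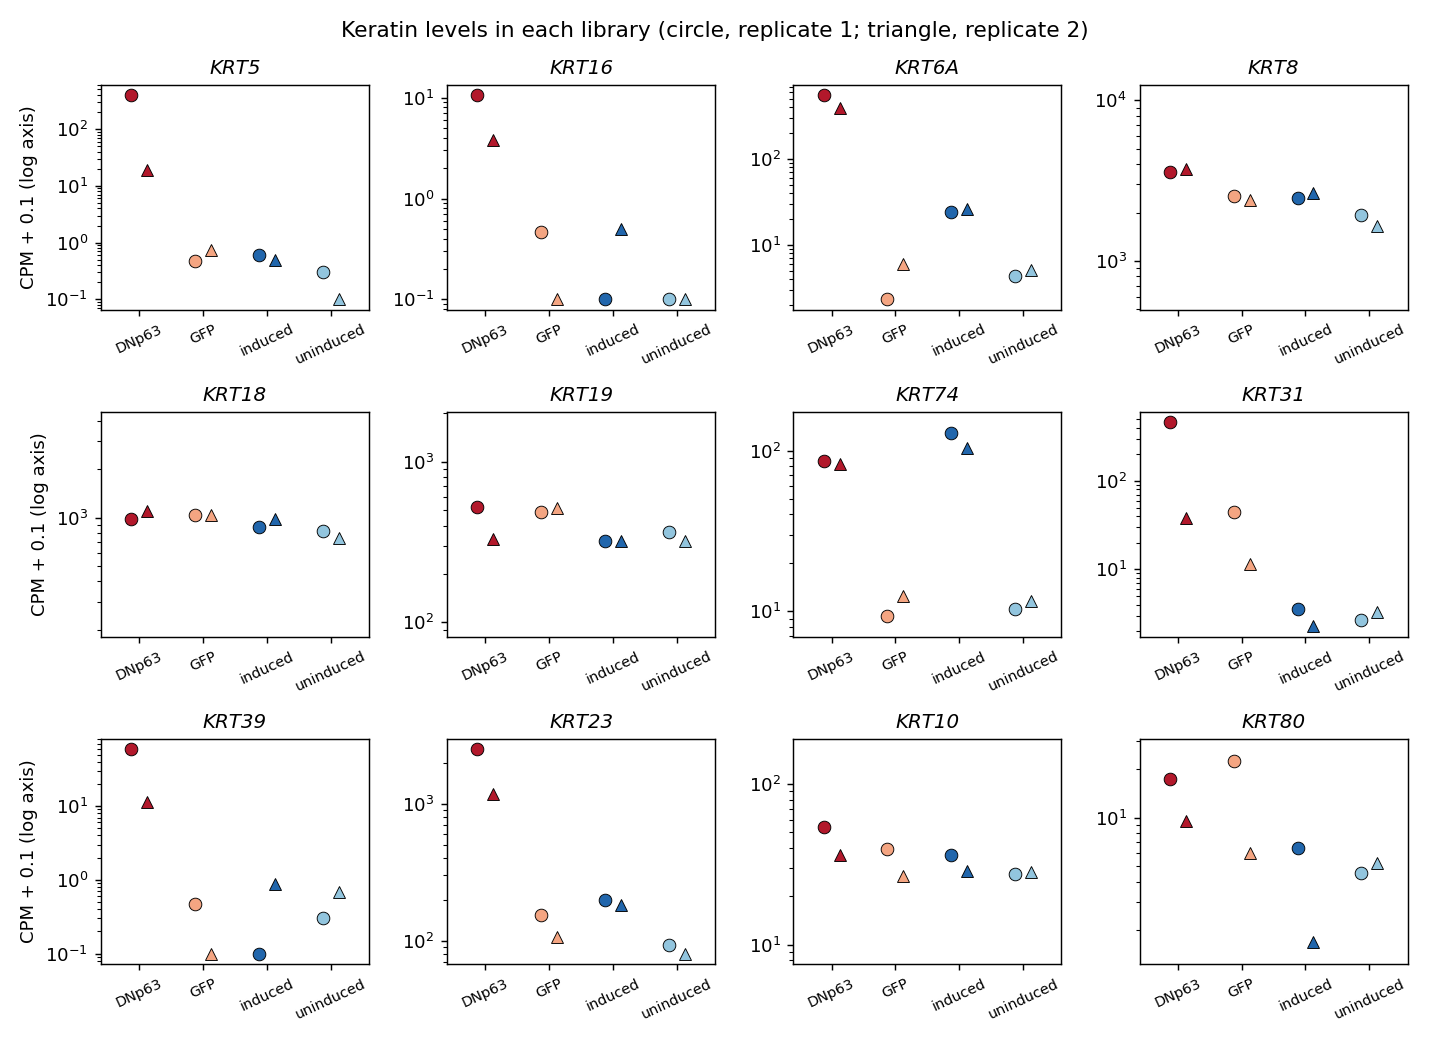
Level of 12 tested keratins in each library (CPM + 0.1 on a log axis). Circles are replicate 1 and triangles replicate 2 of each group. KRT6A and KRT74 are higher in both DNp63 groups than in their controls, KRT5, KRT16 and KRT39 stand out in the constitutive DNp63 libraries alone, and KRT18 and KRT19 lie close together in all groups.

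Among the basal keratins, KRT5, the type II chain of the basal layer, had 397 and 18.8 CPM in the DNp63 libraries, against 0.369 and 0.634 CPM with GFP. Both DNp63 libraries lay above both GFP libraries, but they differed from each other 21.1-fold, with the higher value in the pLEX_306 library, whose TP63 level was 0.485 times that of the pLEX_307 library. The log2 fold change was 8.53 ± 1.49 (SE, n = 2 per group; edgeR adjusted p = 0.00641). Without GFP replicate 2 the call was lost (9.03; adjusted p = 0.087), with leave-out values of 5.08 to 9.48. In induced cells KRT5 had 6 counts, against 1 uninduced, a ratio of 6.94 with an exact 95% counting interval of 0.843 to 319, which includes no change. Its usual type I partner KRT14 had no count in any of the 8 libraries, which allows up to 0.291 to 1.11 CPM per library by a limit of 3 counts. KRT15, another type I chain of basal cells, had 2 and 3 counts with DNp63 and 1 and 0 with GFP.

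The 250 bases before the annotated start of KRT5 are shown because KRT5 had the largest ratio between the DNp63 replicates among the tested keratins. The difference between the systems was not called for KRT5 (adjusted p = 0.821, and 0.397 with the vector block). KRT5 was chosen for this after its values were seen. The sequence is from RefSeq, GRCh38.p14, chr12:52520395-52520644, minus strand, and capitals mark the 4 bases CATG, a common core of sites bound by the p53 family.
KRT5: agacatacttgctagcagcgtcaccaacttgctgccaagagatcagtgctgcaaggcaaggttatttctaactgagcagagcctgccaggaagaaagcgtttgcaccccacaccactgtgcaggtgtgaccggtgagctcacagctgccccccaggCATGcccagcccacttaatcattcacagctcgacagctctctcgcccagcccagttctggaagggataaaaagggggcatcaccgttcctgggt
The single match begins 94 bases before the start. CATG, which reads the same on both strands, is found in 47.6% of the 35116 promoter windows of this length, so the match does not set KRT5 apart. The tandem form, 2 CATG cores with 6 bases between them, occurs in 0.296% of windows and has no match here.

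KRT6A, the type II keratin of wounded and hyperproliferative epithelium, had the largest effect in cells with constitutive DNp63 among the members with more than 3 counts in every group. KRT5, left out of this ranking by its 1 count in the uninduced group, had a larger constitutive log2 fold change of 8.53. KRT6A had 556 and 394 CPM with DNp63, against 2.21 and 5.92 CPM with GFP, and 23.9 and 26.1 CPM induced, against 4.22 and 4.95 CPM uninduced. The groups did not overlap in either system, and the DNp63 libraries also lay above the induced ones. The log2 fold change was 6.75 ± 0.36 (SE; edgeR adjusted p = 6.63e-06) under constitutive and 2.42 ± 0.32 (adjusted p = 0.0144) under induced DNp63. The first was called with each of the 8 libraries left out. The second was lost without any 1 of the 4 inducible libraries (adjusted p = 0.187 to 0.293), with log2 values of 2.33 to 2.56. The induced effect was smaller than the constitutive one by 4.33 ± 0.48 on the log2 scale (edgeR adjusted p = 0.00554). KRT6A and KRT23 were the 2 keratins called in this comparison, both lower, against 0.252% of all tested genes called lower and 0.545% in either direction. This call was lost without induced replicate 1 (0.112), induced replicate 2 (0.0963) or uninduced replicate 2 (0.117).

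KRT6A, KRT6B and KRT6C lie side by side on chromosome 12, and their coding sequences of 1695 bases are 97.5% (KRT6A and KRT6B), 97.9% (KRT6A and KRT6C) and 98.5% (KRT6B and KRT6C) identical. The stretch of coding positions 670 to 745 is shown because it is the one of 76 bases with the most differences among the 3 genes. Capitals mark the 10 positions that differ, and the sequences are from GENCODE 29.
KRT6A: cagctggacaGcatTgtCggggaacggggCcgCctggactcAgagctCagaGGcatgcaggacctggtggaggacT
KRT6B: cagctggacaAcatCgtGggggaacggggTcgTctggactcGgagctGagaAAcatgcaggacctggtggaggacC
KRT6C: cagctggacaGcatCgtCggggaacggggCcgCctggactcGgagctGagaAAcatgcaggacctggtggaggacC
Reads were 38 bases long at each end, and 47.3% of all 38-base windows of the longest KRT6A transcript also occur in transcripts of other genes, mostly KRT6C. The share was 54.4% for KRT6B and 58.5% for KRT6C. No source used here says how reads that match several genes were counted, so the split among the 3 genes is uncertain. In the deposited counts KRT6A held 1951 and 2035 in the DNp63 libraries, KRT6C 18 and 10, and KRT6B 1 and 3. With GFP the corresponding counts were 6 and 28 for KRT6A and 0 for both KRT6B and KRT6C. KRT6C was thus at least 8-fold higher with DNp63, against a floor of 3 counts over the GFP group. Its edgeR adjusted p of 0.0483 passed the threshold in only 1 of the 7 leave-outs that could test it, and reached 0.244 without GFP replicate 2. Summing the 3 genes to 1 row kept KRT6 called in both systems.

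KRT16, the type I partner of KRT6 in wounded epithelium, had 37 and 19 counts with DNp63, against 1 and 0 with GFP. Its level was 10.5 and 3.68 CPM with DNp63, and the count ratio was 48.0 (95% counting interval 8.27 to 1930.1). The edgeR adjusted p was 0.0336, and the call held in 3 of 8 leave-outs, with an adjusted p of up to 0.236 in the others. DESeq2 did not call KRT16 in the constitutive comparison. In the inducible system KRT16 had 0 and 2 counts induced and none uninduced. KRT17, the third wound keratin, had 7 and 1 counts with DNp63 and 1 and 1 with GFP, a ratio of 3.43 whose interval of 0.684 to 33.2 includes no change. Pseudogenes carry copies of both genes, and 32.2% of KRT16 windows and 26.4% of KRT17 windows of 38 bases occur in transcripts of other genes. Per kilobase of transcript, the level of the type II chain KRT6A was 206 ± 49.6 CPM (SD, n = 2) in DNp63 cells, against 4.31 ± 2.93 CPM for the type I chain KRT16.

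**Figure D3:**
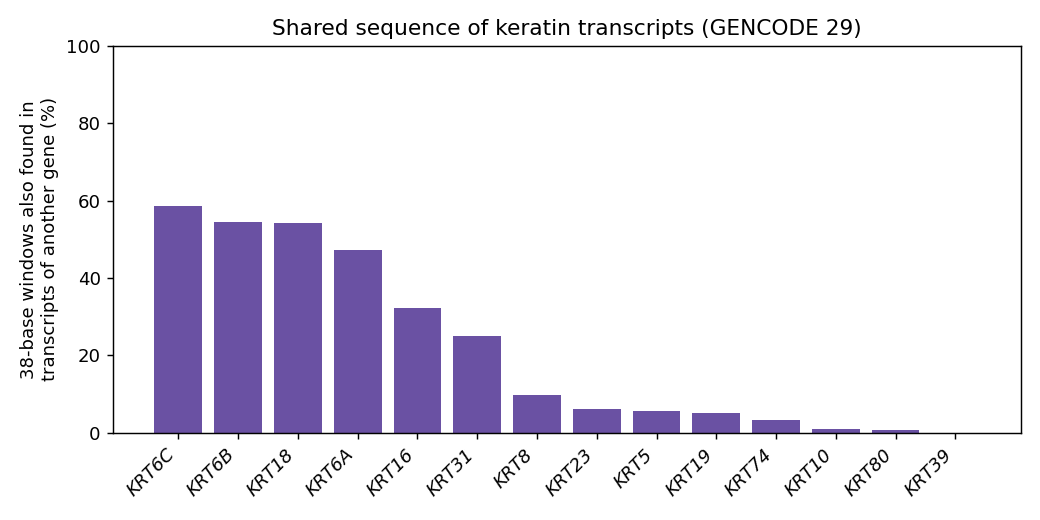
Share of 38-base windows (percent, vertical axis) of the longest coding transcript of KRT6B and the 13 tested keratins that also occur in a transcript of another gene in GENCODE 29. KRT6C, KRT6B, KRT18 and KRT6A share the most, at 58.5% to 47.3%, and KRT39 shares none.

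KRT74, a type II keratin of the inner root sheath of the hair follicle, rose to similar levels in both systems. It had 86.3 and 82.0 CPM with DNp63, against 9.22 and 12.3 CPM with GFP, and 129 and 103 CPM induced, against 10.2 and 11.5 CPM uninduced. All 4 DNp63-expressing libraries lay above all 4 controls, and the induced pair lay above the constitutive pair. The log2 fold change was 2.94 ± 0.24 (SE, n = 2 per group; edgeR adjusted p = 0.000115) under constitutive and 3.40 ± 0.23 (adjusted p = 0.000239) under induced DNp63. Both calls held with each of the 8 libraries left out, with log2 values of 2.77 to 3.17 and 3.23 to 3.56. The difference between the systems, 0.46 ± 0.32 (induced minus constitutive), did not pass the test (adjusted p = 0.629), which does not show that the effects are equal. TP63 itself stood at 1845 and 3806 CPM with constitutive and 412 and 421 CPM with induced DNp63. Of the KRT74 windows of 38 bases, 3.40% are shared with other transcripts.

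The 250 bases before the start of KRT74 are shown because it rose in both systems. They lie at chr12:52573844-52574093, minus strand, in RefSeq GRCh38.p14, with CATG in capitals.
KRT74: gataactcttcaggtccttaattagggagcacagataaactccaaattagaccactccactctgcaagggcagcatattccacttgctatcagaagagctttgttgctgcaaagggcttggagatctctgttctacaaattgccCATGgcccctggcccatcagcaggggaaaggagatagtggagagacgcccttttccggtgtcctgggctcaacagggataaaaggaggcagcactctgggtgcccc
The window holds 1 CATG, 106 bases before the start, and no tandem form.

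The other follicle sheath keratins had few counts. KRT75, a type II chain of the companion layer of the follicle, had 3 and 13 counts with DNp63, against 1 and 0 with GFP, a ratio of 13.7 (95% counting interval 2.13 to 575). KRT71 had 1 count in 8 libraries, KRT72 had 5, all in DNp63 replicate 1, and KRT27 had 2, both in DNp63 replicate 2. KRT73, KRT25, KRT26, KRT28 and KRT79 had none.

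KRT23, a type I keratin placed apart from the layer-specific pairs, was the most abundant of the 7 keratins that rose under constitutive DNp63. It had 2492 and 1184 CPM with DNp63, against 154 and 106 CPM with GFP, and 197 and 181 CPM induced, against 93.4 and 80.4 CPM uninduced. No groups overlapped within a system. KRT23 alone held 27.1% and 17% of all keratin counts in the DNp63 libraries, against 3.55% and 2.59% with GFP. Its share was 4.87% and 4.22% induced, against 2.88% and 2.81% uninduced. The log2 fold change was 3.83 ± 0.34 (SE; edgeR adjusted p = 0.000186) under constitutive DNp63 and was called in all 8 leave-outs. Under induced DNp63 it was 1.12 ± 0.32 and was not called (adjusted p = 0.309). With the vector block this value was 1.12 with an adjusted p of 0.00705. The induced effect was smaller than the constitutive one by 2.70 ± 0.45 on the log2 scale (adjusted p = 0.0308). That call held in 3 of 8 leave-outs and was lost without GFP replicate 2 (0.0916) or any 1 inducible library (0.174 to 0.272). An antisense gene, AC004231.1, spans both KRT23 and KRT39 in GENCODE 29. It shares 6.15% of the 38-base windows of KRT23 and none of KRT39, and no source used here says whether counting used strand.

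**Figure D4:**
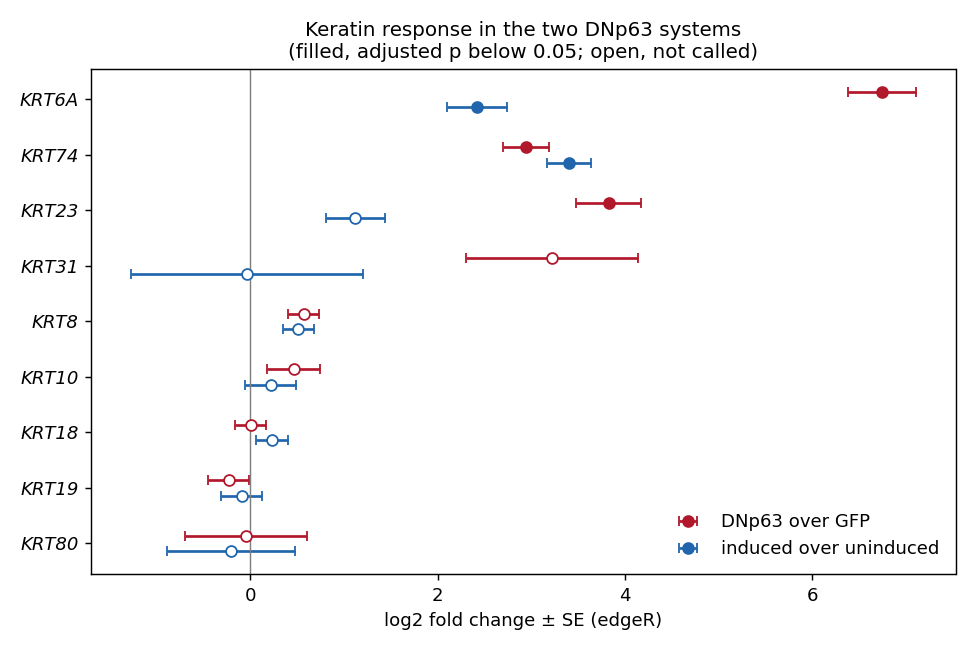
Log2 fold change ± SE (horizontal axis, edgeR, n = 2 per group) of 9 keratins, for DNp63 over GFP (red) and induced over uninduced (blue). Filled points passed an adjusted p of 0.05. KRT6A and KRT23 have a larger constitutive effect, KRT74 has 2.94 and 3.40, and KRT8 has 0.57 and 0.52.

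KRT31 and KRT39 are type I keratins of the hair shaft, the first of its cortex. KRT31 had 459 and 37.9 CPM with DNp63, against 43.9 and 11.4 CPM with GFP. The groups overlapped, since DNp63 replicate 2 lay below GFP replicate 1, but within each vector the DNp63 library was the higher one. The pLEX_306 library exceeded the pLEX_307 library 12.1-fold with DNp63 and 3.84-fold with GFP. Its log2 fold change, 3.22 ± 0.91, missed the edgeR threshold (adjusted p = 0.0564). It was called without DNp63 replicate 2 (4.14; adjusted p = 0.000386), and with the vector block it was 2.69 with an adjusted p of 0.000134. Induced cells had 3.45 and 2.16 CPM of KRT31, against 2.61 and 3.20 CPM uninduced, and these groups overlapped. The control groups differed in KRT31 by −3.15 ± 1.07 on the log2 scale (uninduced minus GFP; adjusted p = 0.419), and by −4.30 with the vector block (adjusted p = 0.000279). The difference between the systems was −3.25 ± 1.53 (adjusted p = 0.431), and −2.72 with the block (adjusted p = 0.0229). Of its windows, 25% occur in other transcripts, mostly of KRT33B, which had 1 count in 8 libraries.

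KRT39 had 205 and 59 counts with DNp63, against 1 and 0 with GFP, a ratio of 226 (95% counting interval 40.3 to 8975; edgeR adjusted p = 0.00516). The call was lost without GFP replicate 2 (0.073). Both DNp63 libraries lay above both GFP libraries, and replicate 1 had 5.12 times the level of replicate 2. Induced libraries had 0 and 4 counts, against 1 and 6 uninduced. The difference between the systems was not called for KRT39, but was with the vector block (adjusted p = 0.0167), without DNp63 replicate 2 (0.019) and with no filter on low counts. KRT32, a cuticle keratin of the hair, had 9 and 3 counts with DNp63 and none with GFP, at least 3.43-fold higher against the floor. The 15 hair and nail keratins below the filter summed to 25 and 14 counts with DNp63, against 1 and 2 with GFP, and to 0 in both induced libraries, against 0 and 3 uninduced. In the constitutive DNp63 cells KRT5, KRT6C, KRT16, KRT23, KRT31 and KRT39 were all higher in replicate 1, the pLEX_306 library, by 2.1-fold to 21.1-fold. The level in replicate 1 was 1.41 to 1.83 times that in replicate 2 for KRT6A, KRT10, KRT19 and KRT80. It was 1.05 times for KRT74, 0.946 times for KRT8 and 0.897 times for KRT18. With 1 library per vector these differences have no replicate check.

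The simple epithelium keratins carried the bulk of keratin RNA in every library. KRT8, their type II chain, had 3549.7 and 3753 CPM with DNp63, against 2536 and 2386 CPM with GFP, and 2466 and 2639 CPM induced, against 1919 and 1652 CPM uninduced. The groups did not overlap in either system. Averaged over both systems KRT8 rose by 0.54 ± 0.12 on the log2 scale (edgeR adjusted p = 0.0222). This call was lost without any 1 inducible library (adjusted p = 0.0884 to 0.18). Within the constitutive system KRT8 was not called by edgeR, at 0.57 ± 0.17 (adjusted p = 0.0608). It was called with the vector block, at 0.57 (adjusted p = 0.0179), and by DESeq2 (adjusted p = 0.0372). Within the inducible system it was 0.52 ± 0.16 (adjusted p = 0.436), and with only the inducible libraries in the fit it was called at 0.52 (adjusted p = 0.000164). KRT18, the type I partner of KRT8, had 984 and 1096 CPM with DNp63, against 1038 and 1038 CPM with GFP, and 868 and 976 CPM induced, against 819 and 749 CPM uninduced. Its averaged log2 value of 0.12 ± 0.12 was not called (adjusted p = 0.663). Of its 38-base windows, 54.2% occur in transcripts of 66 other genes, so its level is uncertain. KRT19, a type I chain without a tail domain, had 518 and 329 CPM with DNp63, against 483 and 512 CPM with GFP, and 320 and 321 CPM induced, against 363 and 319 CPM uninduced. Its averaged value of −0.16 ± 0.15 was not called (adjusted p = 0.646). KRT20, a keratin of intestinal epithelium, had 0 to 5 counts per library.

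Keratins of differentiated layers stayed low. KRT10, the type I chain of the suprabasal epidermis, had 54.1 and 36 CPM with DNp63, against 39.1 and 26.6 CPM with GFP, and 35.9 and 28.9 CPM induced, against 27.3 and 28.3 CPM uninduced. Its averaged log2 fold change was 0.34 ± 0.20 (edgeR adjusted p = 0.386). KRT80, a type II keratin of differentiating epithelia, had 17.4 and 9.48 CPM with DNp63, against 22.5 and 5.92 CPM with GFP, and 6.41 and 1.57 CPM induced, against 4.42 and 5.14 CPM uninduced. Its groups overlapped in both systems, and the averaged value of −0.12 ± 0.47 was not called (adjusted p = 0.93) and changed sign when single libraries were left out. KRT13, of internal stratified epithelia, had 15 counts in DNp63 replicate 1 and none in replicate 2, against 0 and 1 with GFP. KRT10 had 1.01% shared windows, with the overlapping gene TMEM99.

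On the scale of CPM per kilobase of the longest coding transcript, the order of the keratins in uninduced cells was KRT8 at 733 ± 77.5 (SD, n = 2), KRT18 at 462 ± 29.2, KRT19 at 245 ± 22.4, KRT23 at 43.7 ± 4.63 and KRT10 at 13.1 ± 0.333, with KRT74 at 3.80 ± 0.322 and KRT6A at 1.98 ± 0.223. In induced cells KRT8, KRT18, KRT19 and KRT23 kept their order, at 1047 ± 50.2, 544 ± 45, 231 ± 0.509 and 95.1 ± 5.69, and KRT74 stood next at 40.6 ± 6.43, ahead of KRT10 at 15.3 ± 2.33. In the constitutive DNp63 cells KRT23 was second, at 925 ± 465, after KRT8 at 1498 ± 59.0 and before KRT18 at 613 ± 46.7. The place of KRT23 next to KRT18 did not differ beyond the spread between the DNp63 libraries. KRT6A followed KRT19 (305 ± 96.1) at 206 ± 49.6. KRT31 and KRT5 came next, at 156 ± 187 and 82.1 ± 106, with SDs larger than their means.

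Type I chains held 49.9% and 38.8% of keratin counts in the DNp63 libraries, against 40.6% and 41.3% with GFP, so the DNp63 values lay on either side of the GFP values. They held 35.2% and 35.3% in induced libraries, against 40.2% and 41.4% uninduced. KRT8 and KRT18 together held 49.3% and 69.6% of keratin counts with DNp63, against 82.5% and 83.4% with GFP, and 82.3% and 84.5% induced, against 84.4% and 84.1% uninduced.

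None of the 13 tested keratins was called between the control groups (uninduced against GFP) by edgeR, and DESeq2 called none, while 5 were lower at an unadjusted p below 0.05. Over all genes 0.00813% were called by edgeR, 0.365% were called lower by DESeq2 and 5.33% were lower at an unadjusted p below 0.05. With the vector block, KRT23 (−0.98; adjusted p = 0.0238) and KRT31 were called lower in uninduced than in GFP cells. All-gene calls in either direction then numbered 338, against 1 without the block.

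The RNA of genes listed as keratin linkers and partners was compared beside the keratins. Of 14 listed linkers and partners, all tested, 4 rose in the averaged comparison and none fell, against 3.26% of all tested genes that rose. PKP1, 1 of these 4, entered the test only through the constitutive DNp63 libraries, where it was high. The count of 4 is therefore a description and not support for a change of the linkers. Periplakin, PPL, had 184 and 127 CPM with DNp63, against 45 and 28.5 CPM with GFP, and 65.4 and 79.9 CPM induced, against 63.1 and 57.3 CPM uninduced. Plectin, PLEC, the linker to integrins, had 592 and 654 CPM with DNp63, against 182 and 137 CPM with GFP, and 164 and 137 CPM induced, against 140 and 116 CPM uninduced. The desmosomal plaque gene PKP1 had 24 and 170 counts with DNp63, against 3 and 3 with GFP. It had 13 and 6 counts induced, against 0 and 2 uninduced. Its relative PKP4 rose by 0.80 ± 0.12 in the averaged comparison (edgeR adjusted p = 0.00341). PKP1 was higher in DNp63 replicate 2, the reverse of KRT5. Under induced DNp63 none of the 14 was called. The induced minus constitutive value was −1.73 ± 0.29 for PLEC (edgeR adjusted p = 0.0343), the only linker called in that comparison. Of all tested genes, 0.545% were called there in either direction. For PPL the value was −1.82 ± 0.37 and was not called (adjusted p = 0.0675). Of 16 other intermediate filament genes, 8 were tested in the averaged comparison, where 2 fell and none rose, against 2.41% of all tested genes that fell. The fallers were NES, of neural progenitors, at −1.34 ± 0.28 (adjusted p = 0.019), and NEFL, a neurofilament chain, at −0.93 ± 0.17 (adjusted p = 0.00861). NEFL stood at 50.2 and 76.8 CPM with DNp63, against 124 and 150 CPM with GFP, and 69.8 and 73.3 CPM induced, against 133 and 108 CPM uninduced. Vimentin, VIM, the filament of mesenchymal cells, had 0 to 11 counts per library and was not tested.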

How the data were processed

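The deposited table holds raw counts of each gene symbol in every library. TopHat2 2.1, HTSeq, SAMtools and DESeq2, and the build hg19, are named in the submitters' processing notes. Per the labels' protocols, polyA-selected directional libraries were read from both ends for 38 bases. No source used here gives the annotation, the strand setting or the handling of multiply matching reads. Every column was matched to a sample title.

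Genes kept by edgeR's filterByExpr (minimum count 10) numbered 12303. Libraries were scaled by TMM, and edgeR 4.0.16 fitted a mean per group, with 1 estimate of spread from the 8 libraries together (legacy quasi-likelihood, R 4.3.3). Adjusted p-values cover all tested genes. Each gene's CPM uses the total count times the TMM factor. Groups with 3 or fewer counts are given as count ratios with exact 95% intervals or against a floor of 3 counts over the group. Intervals and floors cover counting error only, and 3 counts amount to 0.291 to 1.11 CPM of a library. DESeq2 1.42.0, other scalings and filters, blocks and leave-outs were alternatives.

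Same-numbered libraries of the constitutive system share a vector number, per the labels, and their deviations correlated at 0.22 over genes, so the number was used as a block there. In the inducible system the correlation was −0.0334 and the number has no stated meaning. Replicates differed by more than sampling noise in each group, with a chi-square per degree of freedom of 3.97 to 26.8.

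Transcript lengths and shared windows are from GENCODE 29 (GRCh38), for the longest coding transcript of each of the 55 members, while the counts were made on hg19. Promoters are from RefSeq, which had 34 members. All tested members are named, linkers and other filament genes only where called in the averaged comparison, up to 6 per list, and VIM beside them. Members and lists were chosen with earlier results of these data known.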

Additional observations from a re-analysis of the deposited data

Results flagged for a closer look

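In 2 keratins the change against the control group differed between the inducible and the constitutive system by the test of the difference itself (edgeR). For KRT6A the induced minus constitutive log2 fold change was −4.33 (adjusted p = 0.00554), and for KRT23 it was −2.70 (adjusted p = 0.0308). TP63 differed in the same direction, at −5.99 (adjusted p = 0.00378). Its part in the difference was not tested.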

How the results depend on the processing

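The number of keratins called was 7 under constitutive DNp63, with 3 to 8 when single libraries were left out. It was 2 under induced DNp63, with 1 to 3 in the leave-outs and 4 with only the inducible libraries in the fit. The averaged count of 4 was 3 to 7 in the leave-outs, 8 without a filter on low counts, and 7 with the replicate block in both systems or in the constitutive system alone. Without GFP replicate 2 the constitutive count was 3, and without any 1 inducible library the induced count was 1. Without DNp63 replicate 2 the averaged count was 7. The count of 2 for the difference between systems was 0 to 4 in the leave-outs and 4 with no filter or with either replicate block. The count of 0 for the control groups was 2 with no filter, 1 with the replicate block in both systems and 2 with the block in the constitutive system. The constitutive count of 7 was 8 with the replicate block in both systems and 9 with the block in the constitutive system. All-gene calls moved too, given here for no filter, the block in both systems and the block in the constitutive system. They were 1372, 1040 and 1421 against 697 in the main fit (averaged). For the difference between systems they were 558, 270 and 472 against 67, and for the control groups 245, 65 and 338 against 1. The cause of these shifts was not tested. Size-factor scaling, bias-adjusted estimates, DESeq2, a minimum count of 30 and summed KRT6 genes left each of these 5 counts within 1.5 times. Over all genes the calls ranged from 275 to 1940 against 1004 (constitutive) and from 2 to 771 against 35 (induced). The averaged KRT80 value was −0.83 to 0.48 in the leave-outs and reversed to 0.09, 0.48 and 0.18 without DNp63 replicate 2, GFP replicate 1 and induced replicate 2. The averaged log2 difference of summed keratins, 0.69, stayed between 0.59 and 0.79. The block in the constitutive system changed no other keratin call than those given beside the results. With 2758158 to 10372248 counts per library, the 42 untested keratins cannot be compared beyond their counts.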
